A study of Homo sapiens with 18 samples.

Results

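The comparison described here set unstimulated THP-1 cells that had received an siRNA against TRAFD1 (KD) against unstimulated THP-1 cells that had received a non-targeting, scrambled siRNA (SCR). All genes that passed a filter on low counts were included, which were 16678 of the 63677 genes in the table, and each group held 3 of the 18 libraries of the series. THP-1 is a monocyte-like cell line that was established from a human acute monocytic leukaemia and grows in suspension. Both groups received 25 nM siRNA with Lipofectamine RNAiMAX and were kept for 72 h, followed by 4 h in plain medium. The sequence of the scrambled siRNA is not given by its supplier. A further 3 unstimulated libraries came from cells without siRNA (WT), which the labels of the samples describe as given the transfection mix alone and the text of the series as untreated, and the other 9 libraries came from KD, SCR and WT cells given lipopolysaccharide (LPS) at 10 ng/ml for the same 4 h. One cell line and 1 siRNA against TRAFD1 were used, and the methods give each treatment as done in triplicate without saying whether in separate cultures, so the p-values measure the spread between these libraries, which may be technical.

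TRAFD1 encodes a zinc finger protein that is related to the TRAF adaptors, the proteins that carry signals from Toll-like and TNF-family receptors to the transcription factor NF-kB, and it is known as a brake on innate immune signalling. An siRNA is a short duplex of which one strand is loaded into an Argonaute protein and leads it to messenger RNAs that match its whole length, which are then cut. Through bases 2 to 8 alone, called the seed, the same strand can also pair with sites in the 3′ untranslated regions (UTRs) of other messenger RNAs and lower them to a lesser degree, in the way of a microRNA.

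The siRNA sequence is shown because it defines the treatment. The labels give the target stretch, and the strand that pairs with it, with the seed in capitals, follows from it:
TRAFD1 target: CCCAGCCGACCCATTAACAAT
complementary strand: aTTGTTAAtgggtcggctggg
On GRCh37 the target lay on the forward strand at chr12:112589676-112589696, in the coding part of exon 10 of 12 of TRAFD1 (ENSG00000135148, chromosome 12, 112563342 to 112591408). It ended 1712 bases before the end of the gene, while the reads of this protocol come from the 3′ end of polyadenylated RNA. The target is shown in capitals within its surroundings in the gene:
TRAFD1 exon 10: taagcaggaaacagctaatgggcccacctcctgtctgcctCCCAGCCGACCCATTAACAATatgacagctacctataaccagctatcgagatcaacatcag
Among the annotated transcripts of the genes in the table, the full target was found in 2 transcripts, both of TRAFD1.

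Total counts ran from 12104063 to 14732654 in the KD libraries and from 10743235 to 22344279 in the SCR libraries, with the largest total in SCR replicate 1. Values are given as CPM, counts per 1000000 counts of the library after TMM scaling, and a floor of 3 counts stood at 0.134 to 0.279 CPM. Of 15 monocytic markers, 14 passed the filter, among them CD33, CD68, LYZ, SPI1, CSF1R and ITGAM, and CEBPA did not exceed 2 counts. Of the 6 erythroid markers, 5 had no count in any of the 6 libraries, as had CD3E, CD2 and TRBC2 of the T and NK cell list, while the B cell factor PAX5 stood at 31.8 to 43.4 CPM. The summed level of the tested monocytic markers was 1781 to 1885 CPM in KD and 1757 to 1906 CPM in SCR.

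TRAFD1, the target, was lower in KD. It stood at 11.6, 5.37 and 9.02 CPM in the 3 KD libraries and at 26.8, 20.1 and 24.3 CPM in the 3 SCR libraries. The groups did not overlap, and KD replicate 2 was the lowest. The means were 8.67 ± 3.14 CPM in KD and 23.7 ± 3.38 CPM in SCR (SD, n = 3 each), so that KD retained 36.5% of the SCR level, and the log2 fold change was −1.45 ± 0.23 (SE), with an adjusted p of 0.0277 in the quasi-likelihood test of edgeR. The WT libraries, at 22.2, 21.2 and 18.3 CPM, lay within or just below the SCR range. This call was lost without KD replicate 2 (adjusted p = 0.064), SCR replicate 1 (0.119) or SCR replicate 3 (0.112), and when only the 6 libraries of the pair were fitted (0.0847), with a log2 fold change between −1.72 and −1.20 whichever library was left out.

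Across all genes, 11 passed an adjusted p of 0.05, which was 0.066% of the genes tested. Of these, 7 were lower in KD (0.042%) and 4 were higher (0.024%). All 4 that were higher are processed pseudogenes of ribosomal protein genes, and the 7 that were lower comprise 5 protein-coding genes, an annotated pseudogene and an antisense transcript. Without adjustment, 2107 genes (12.6%) had a p under 0.05, which is called a nominal p below, and of these 957 (5.74%) were higher and 1150 (6.90%) lower in KD. The KD and SCR libraries did not overlap for 2515 genes (15.1%). In bulk RNA, a lower value from fewer cells of a kind and one from less RNA per cell cannot be told apart. DESeq2 on all 18 libraries called 242 of the 16678 genes, 107 higher and 135 lower, and its calls in the gene lists below come from that fit. When the model was fitted to the 6 libraries of the pair alone, 0 genes passed in edgeR (1305 at a nominal p under 0.05) and DESeq2 called 86 without a filter. The count also fell to 1 without SCR replicate 1 or without SCR replicate 3, to 3 without KD replicate 2 and to 6 without SCR replicate 2, and it was 52 without KD replicate 1.

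**Figure D1:**
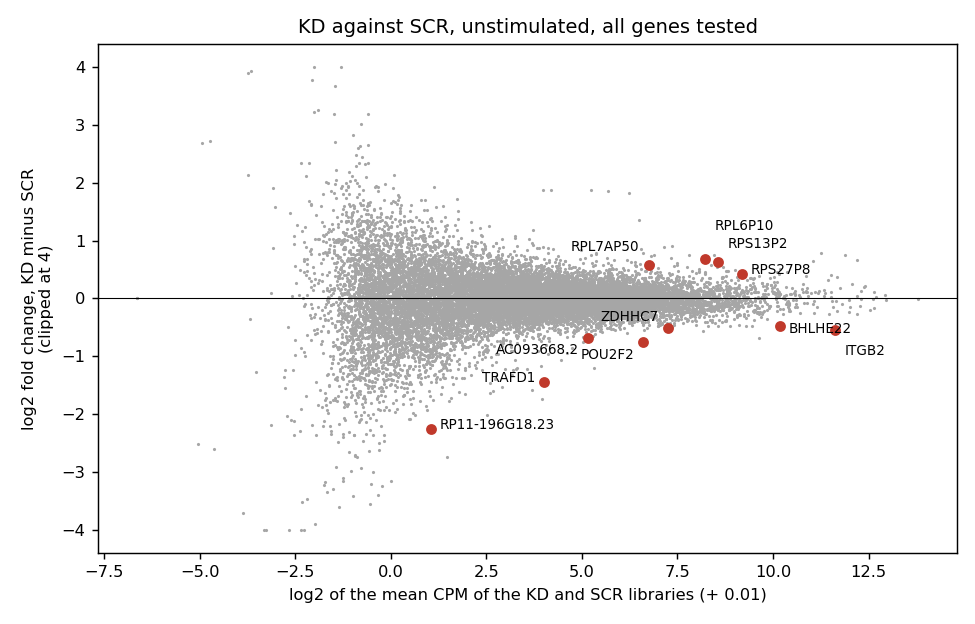
Log2 fold change of KD minus SCR without LPS (vertical axis, clipped at 4) against the log2 of the mean CPM of the 6 libraries (horizontal axis), with each of the 16678 genes tested as a grey point. The 11 genes past an adjusted p of 0.05 are in red, 7 below and 4 above 0, and of these all but RP11-196G18.23 and TRAFD1 changed by less than 1 on the log2 scale.

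POU2F2 had the smallest p of all genes tested. It encodes OCT2, an octamer-binding transcription factor of B cells and myeloid cells. Its level was 67.9, 67.6 and 80.2 CPM in KD and 133, 113 and 119 CPM in SCR. No KD library came near the SCR range, and the WT libraries, at 104, 109 and 123 CPM, lay within or just below it. KD stood at 59.1% of SCR, a log2 fold change of −0.76 ± 0.10 (SE; adjusted p = 0.00228, edgeR). It passed in each of the 6 fits that left out 1 KD or SCR library, with a highest adjusted p of 0.0388, but not in the pair alone (0.0847).

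ITGB2 encodes CD18, the beta subunit that the beta-2 integrins of leukocytes share and that carries adhesion and phagocytosis of complement-coated particles. It was among the abundant transcripts, at 2488, 2623 and 2653 CPM in KD against 4319, 3498 and 3482 CPM in SCR. The KD libraries lay close together and SCR replicate 1 stood above the other two. The log2 fold change was −0.54 ± 0.09 (SE; adjusted p = 0.0341, edgeR). The WT libraries, at 3148, 2914 and 3816 CPM, were higher than every KD library.

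ZDHHC7 encodes an enzyme that attaches palmitate to proteins. It fell from 197, 156 and 182 CPM in SCR to 127, 117 and 131 CPM in KD, by 0.51 ± 0.10 (SE) on the log2 scale (adjusted p = 0.0479, edgeR), and its WT libraries, at 182, 164 and 180 CPM, lay within the SCR range. BHLHE22 encodes a basic helix-loop-helix factor known from the nervous system. It was at 1057, 830 and 1014 CPM in KD and at 1396, 1302 and 1320 CPM in SCR, a log2 fold change of −0.47 ± 0.09 (SE; adjusted p = 0.0479, edgeR). Unlike the genes above, its WT level was higher than that of both siRNA groups, at 1878, 1598 and 1846 CPM, and the log2 difference of SCR from WT was −0.41 (adjusted p = 0.0144, edgeR, in a comparison in which 3.23% of genes passed), so that this gene fell along the order WT, SCR, KD.

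No strand setting of the counting is given in the sources used here, so reads of genes that overlap on opposite strands cannot be told apart. Among the genes that fell, POU2F2, ITGB2 and BHLHE22 each overlap an annotated antisense gene, and ITGB2-AS1 was at a mean of 8.45 CPM in KD and 14.0 CPM in SCR (log2 fold change −0.72, adjusted p = 0.138, edgeR). AC093668.2, an annotated pseudogene on chromosome 7 from 102120179 to 102121095, overlaps RASA4B on the same strand and AC093668.3 on the other strand. It stood at 24.8, 26.5 and 31.3 CPM in KD and at 40.3, 49.8 and 43.1 CPM in SCR (log2 fold change −0.69, adjusted p = 0.0341, edgeR). RP11-196G18.23, an antisense transcript on chromosome 1 from 149802876 to 149804109 that overlaps no other annotated gene, had the largest fold change of the 11 at a low level. It was at 0.873, 0.744 and 0.467 CPM in KD and at 3.20, 3.38 and 3.62 CPM in SCR, with between 6 and 72 counts per library, and the log2 fold change was −2.27 ± 0.39 (SE; adjusted p = 0.0341, edgeR). This gene is absent from the fit that required 5 CPM in 3 libraries, in which the other 10 passed.

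**Figure D2:**
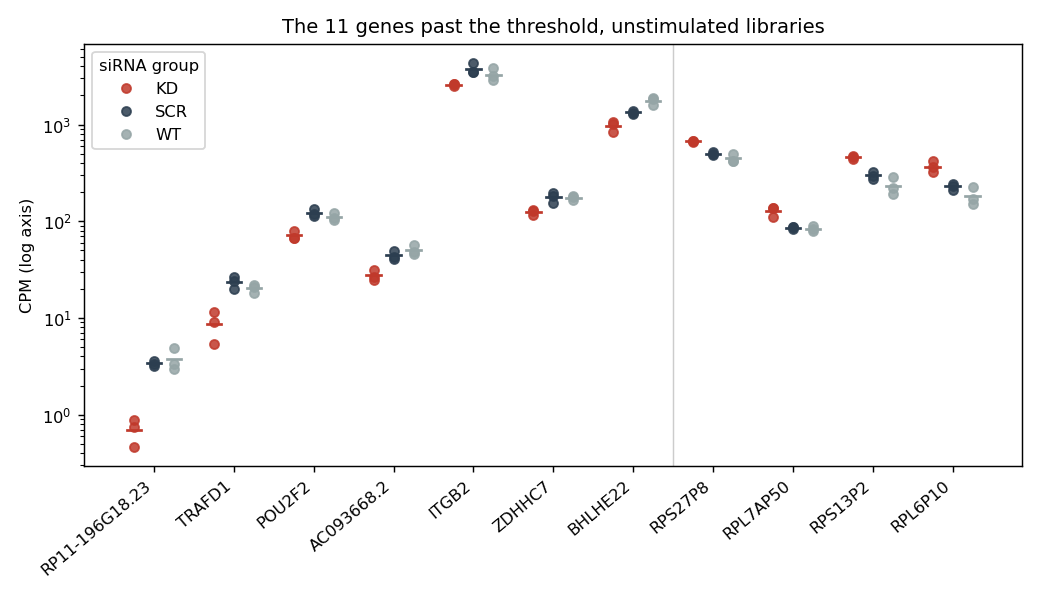
CPM on a log axis of the 11 genes past an adjusted p of 0.05 in each unstimulated library, with KD in red, SCR in dark blue and WT in grey and a short line at each group's mean (n = 3). The KD points lie apart from the SCR points for all 11 genes, which the threshold largely implies, whereas the WT mean lies above the SCR mean for AC093668.2, BHLHE22 and RP11-196G18.23 and below it for the other 8.

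The 4 genes that rose are RPS27P8, RPL6P10, RPL7AP50 and RPS13P2, processed copies of the genes for ribosomal proteins S27, L6, L7a and S13. RPS27P8 went from 522, 482 and 491 CPM in SCR to 682, 656 and 671 CPM in KD, a log2 fold change of 0.43 ± 0.07 (SE). RPL6P10 went from 210, 245 and 234 to 367, 320 and 418 CPM, by 0.68 ± 0.12 (SE). RPS13P2 went from 275, 323 and 297 to 478, 440 and 461 CPM, by 0.62 ± 0.12 (SE). No KD library overlapped with SCR for any of them, and the WT means lay below SCR for all 4. RPL7AP50 went from 82.6, 88.1 and 87.9 to 136, 110 and 139 CPM, by 0.57 ± 0.11 (SE), with WT at 80.1, 89.5 and 82.8 CPM. The adjusted p ran from 0.0341 to 0.0479 (edgeR).

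These pseudogenes are near copies of the spliced transcripts of their parent genes, so reads can be assigned to either. RPS27P8 differed from RPS27 at 2 of 254 aligned bases (99.2% identical) and shared with it an unbroken run of 190 bases. RPL6P10 was 98.5% identical to RPL6 over 867 bases, RPS13P2 97.4% to RPS13 over 455 bases and RPL7AP50 96.6% to RPL7A over 789 bases, with longest shared runs of 171, 127 and 116 bases. RPS27 itself stood at 1231, 1000 and 1049 CPM in KD and at 928, 781 and 860 CPM in SCR (log2 fold change 0.35, adjusted p = 0.0841, edgeR). The adjusted p was 0.137 for RPL6 (log2 fold change 0.23) and 0.192 for RPS13 (0.19). RPL7A had a log2 fold change of −0.08 (adjusted p = 0.673, edgeR), with 1853, 1839 and 1794 CPM in KD and 2018, 1862 and 1917 CPM in SCR, while its copy passed the threshold in the other direction. Each copy's value is therefore uncertain as a measure of that locus. Across the 456 tested pseudogenes of ribosomal protein genes, 4 passed, 80 (17.5%) were higher and 19 (4.17%) lower at a nominal p under 0.05, and the median log2 fold change was 0.07, against −0.01 over all genes tested. Without KD replicate 1 that median was −0.05.

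Among cytosolic ribosomal protein genes, more were higher than lower in KD by their nominal p. Of the 78 tested, 0 passed an adjusted p of 0.05 in edgeR, while DESeq2 on the same libraries called 8 of them higher (107 of all 16678 genes). At a nominal p under 0.05, 25 (32.1%) were higher and 3 (3.85%) lower, and the median log2 fold change was 0.12. The mean of their log2 levels, set against the mean of the SCR libraries, was 0.11, 0.13 and 0.09 in the KD libraries and between −0.02 and 0.03 in the SCR libraries. The WT libraries were at −0.19, −0.16 and −0.17, so that SCR lay between WT and KD. RPS29, of the small subunit, had a lower mean in KD, at 4256 CPM against 5132 CPM in SCR (log2 fold change −0.27, adjusted p = 0.12, edgeR). Of the 28 tested genes of ribosome biogenesis, 0 were higher and 1 was lower at a nominal p under 0.05. The mean log2 levels of the pseudogenes were less even, at 0.26, −0.05 and −0.06 in KD replicates 1, 2 and 3 against −0.06 to 0.05 in SCR, so that only KD replicate 1 lay above the SCR range.

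Genes of the mitochondrial genome, which encode subunits of the respiratory chain, were likewise more often higher in KD by their nominal p. Of the 13, 8 (61.5%) had a nominal p under 0.05 and all 8 were higher, 0 passed the adjusted threshold in edgeR (2 in DESeq2, MT-ND1 and MT-ND2), and the median log2 fold change was 0.31. MT-ND2, a complex I subunit, stood at 2939, 3574 and 2820 CPM in KD and at 1593, 1963 and 1863 CPM in SCR, without overlap (log2 fold change 0.78, adjusted p = 0.0599, edgeR). MT-ND1 stood at 5809, 7025 and 4509 CPM in KD and at 4118, 3450 and 3327 CPM in SCR (log2 fold change 0.67, adjusted p = 0.105). KD replicate 2 was the highest library for both. The mean log2 level of the 13 mitochondrial genes relative to SCR was 0.27, 0.60 and 0.09 in KD replicates 1, 2 and 3. It ran from −0.07 to 0.07 in SCR and from −0.14 to 0.12 in WT, so that KD replicate 3 lay below the highest WT library. Of the 29 tested respiratory chain genes of the nucleus, 0 were higher and 1 was lower at a nominal p under 0.05, with a median of 0.03. Several measures of the libraries are given beside these lists. Mitochondrial genes held 4.01%, 4.86% and 3.87% of the counts in KD against 3.28% to 3.47% in SCR, pseudogenes held 10.5% to 11.2% against 10.2% to 10.5%, and the number of genes expected at a common depth of 8206023 counts was 20074 to 20676 in KD against 20754 to 21610 in SCR. The mitochondrial share contains the listed mitochondrial genes, and the pseudogene share contains the listed ribosomal protein pseudogenes. Neither share is therefore a measure separate from those lists. The part of the library measures in the ribosomal and mitochondrial values was not tested.

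**Figure D3:**
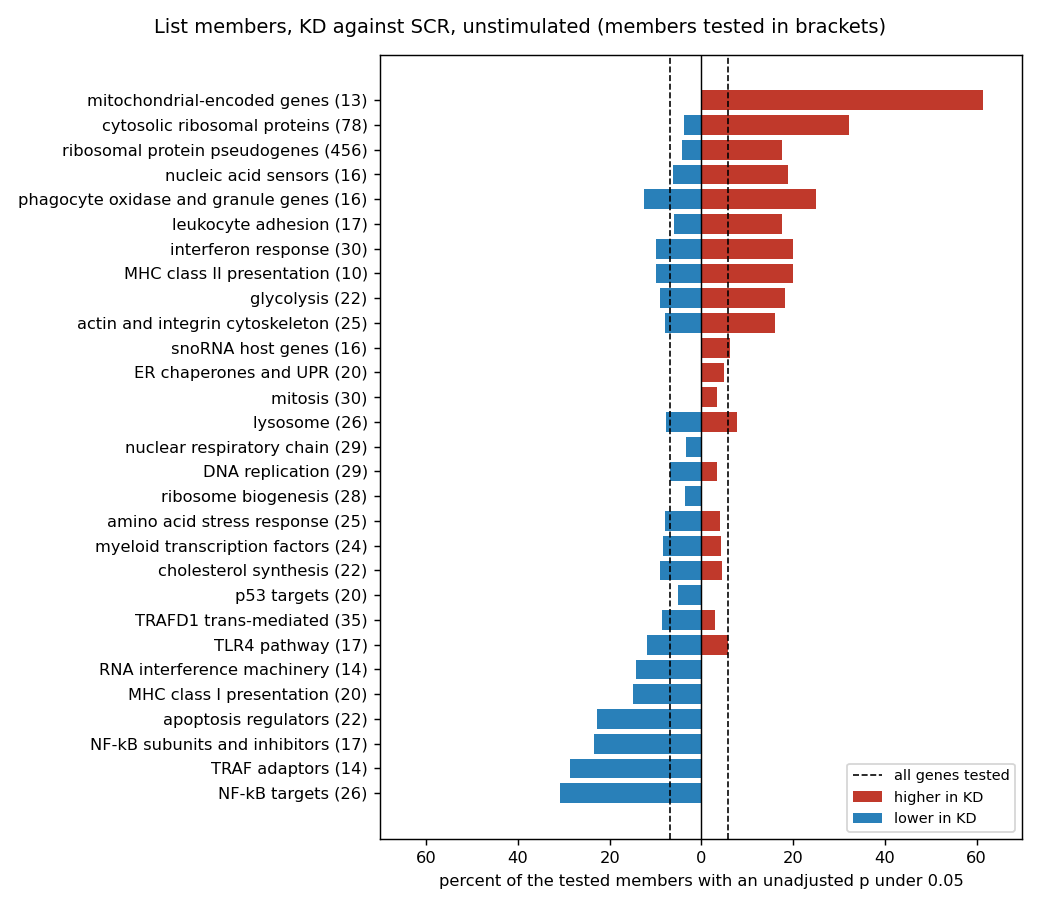
Percent of the tested members of 29 gene lists with a nominal p under 0.05 in KD against SCR without LPS, to the right in red where higher in KD and to the left in blue where lower, with dashed lines at the shares over all genes tested (5.74% and 6.90%). Mitochondrial-encoded and cytosolic ribosomal protein genes extend farthest to the right and NF-kB targets and TRAF adaptors farthest to the left. The TRAF adaptors include TRAFD1, the target of the siRNA.

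Among TRAF adaptors and NF-kB genes, those with a nominal p under 0.05 were lower in KD. Of 14 tested TRAF adaptors and related genes, 1 passed the adjusted threshold, TRAFD1 itself, and 4 including it (28.6%) were lower and 0 higher at a nominal p under 0.05. TRAF4 stood at 12.3, 10.9 and 7.0 CPM in KD and at 17.3, 14.0 and 16.6 CPM in SCR (log2 fold change −0.67, adjusted p = 0.103, edgeR). TRAF3, an adaptor of interferon and non-canonical NF-kB signalling, stood at 63.0, 52.9 and 67.2 CPM in KD and at 81.4, 72.4 and 74.6 CPM in SCR (log2 fold change −0.32, adjusted p = 0.167). In both genes every KD library was below every SCR library. The WT libraries of TRAF4 were at 13.3 to 15.9 CPM. Those of TRAF3, at 58.1 to 65.7 CPM, lay within the KD range and below every SCR library. TRAF6, the adaptor of Toll-like receptor signalling, had means of 8.69 CPM in KD and 10.6 CPM in SCR (log2 fold change −0.28, adjusted p = 0.664).

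Of the 17 tested subunits and inhibitors of NF-kB, 0 passed the adjusted threshold in edgeR (NFKBIA did in DESeq2) and 4 (23.5%) were lower and 0 higher at a nominal p under 0.05. NFKBIA encodes the inhibitor IkB-alpha and is itself a target of NF-kB. It stood at 300, 328 and 249 CPM in KD and at 397, 414 and 360 CPM in SCR, without overlap (−0.42 ± 0.09 on the log2 scale, SE; adjusted p = 0.0655, edgeR), and the WT libraries, at 253, 238 and 266 CPM, were below every SCR library and overlapped with KD. RELA, the p65 subunit, stood at 77.7, 88.6 and 106 CPM in KD and at 124, 114 and 122 CPM in SCR (log2 fold change −0.40, adjusted p = 0.134), with WT at 107, 113 and 120 CPM. RELB had a log2 fold change of −0.43 (adjusted p = 0.28) and WT at 60.8 to 103 CPM, below the SCR libraries at 174, 195 and 179 CPM.

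Of 26 tested NF-kB targets, 8 (30.8%) were lower and 0 higher at a nominal p under 0.05, and 0 passed the adjusted threshold in edgeR (2 in DESeq2, NFKBIA and BIRC2). The median log2 fold change was −0.28, and 20 of the 26 lay below 0. The 6 above 0 were CXCL2 (1.13), CCL20 (1.13), CXCL3 (1.02), CXCL8 (0.56), GADD45B (0.06) and TRAF1 (0.02), and TNF was at −0.003. The chemokine genes among these 6 had means of 0.345 to 3.06 CPM in KD. Of the 26, IL1A, VCAM1 and CXCL3 had means over the 6 libraries at or under the highest floor of 0.279 CPM and passed the filter through other groups. Over the other 23 genes, 18 lay below 0 and the median was −0.28. Besides NFKBIA and RELB, the 8 comprised BIRC2 and BIRC3, inhibitors of apoptosis, TNFAIP2, the cytokine gene IL1B, CD83 of mature antigen-presenting cells and the anti-apoptotic BCL2A1. BIRC2 stood at 82.1, 69.7 and 77.0 CPM in KD and at 98.0, 93.3 and 94.6 CPM in SCR (log2 fold change −0.32, adjusted p = 0.115, edgeR). TNFAIP2 stood at 381, 227 and 314 CPM in KD and at 404, 386 and 448 CPM in SCR (log2 fold change −0.42, adjusted p = 0.258). Over the whole list, the mean log2 level relative to SCR was 0.00, −0.25 and −0.40 in KD replicates 1, 2 and 3 and ran from −0.06 to 0.04 in SCR, so that KD replicate 1 lay within the SCR range. In the WT libraries it was −0.70, −0.68 and −0.80. Over the 23 genes above the floor it was 0.09, −0.26 and −0.45 in KD, −0.03 to 0.02 in SCR and −0.88 to −0.78 in WT. KD replicates 2 and 3 thus lay between the cells without siRNA and those with the scrambled siRNA, and KD replicate 1 did not.

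**Figure D4:**
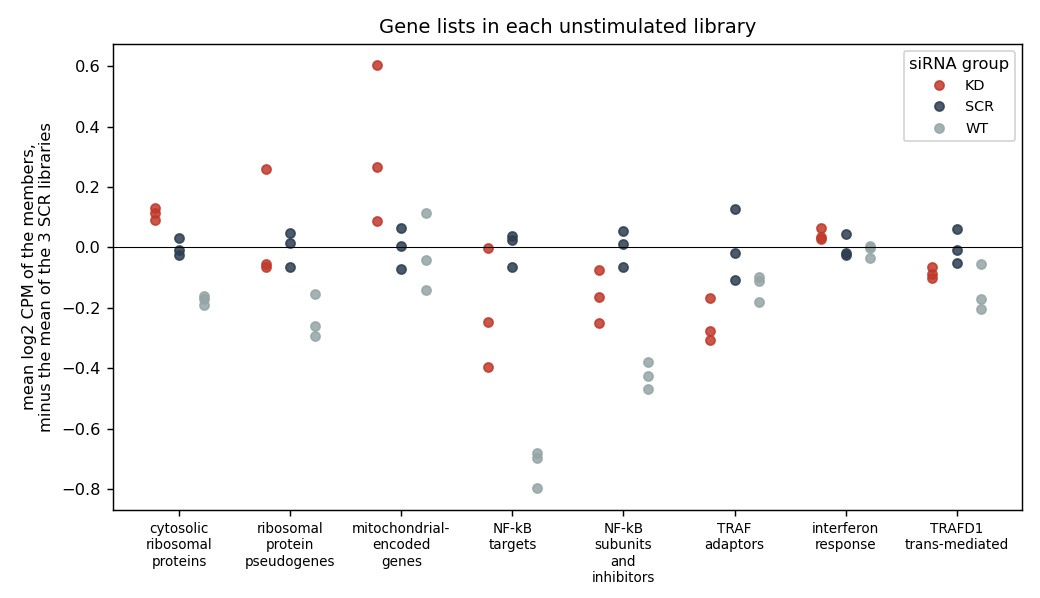
Mean log2 CPM over the tested members of 8 gene lists in each unstimulated library, minus the mean of the 3 SCR libraries (vertical axis), with KD in red, SCR in dark blue and WT in grey. Ribosomal protein genes of KD lie at 0.09 to 0.13, above SCR and WT, and NF-kB targets of KD spread from −0.40 to 0.00, with KD replicate 1 within the SCR range and the other two between it and WT at −0.80 to −0.68.

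The LPS receptor pathway itself showed 1 higher and 2 lower of 17 tested genes at a nominal p under 0.05, with a median log2 fold change of −0.17. CD14, the LPS co-receptor, stood at 23.6, 30.7 and 25.8 CPM in KD and at 43.1, 30.7 and 32.7 CPM in SCR (log2 fold change −0.42, adjusted p = 0.387, edgeR). Its WT libraries, at 10.9 to 20.7 CPM, were below every KD and every SCR library. TBK1, the kinase that phosphorylates IRF3, had a log2 fold change of 0.48 (adjusted p = 0.315, edgeR). Of 22 regulators of apoptosis, 5 (22.7%) were lower and 0 higher. These were MCL1 and BCL2A1, which protect against apoptosis, BBC3, which promotes it, and BIRC2 and BIRC3. BCL2A1, BIRC2 and BIRC3 are also in the list of NF-kB targets. MCL1 stood at 443, 352 and 404 CPM in KD and at 491, 479 and 509 CPM in SCR (log2 fold change −0.30, adjusted p = 0.154).

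Interferon response genes went both ways. Of 30, 6 (20%) were higher and 3 (10%) lower at a nominal p under 0.05, 0 passed the adjusted threshold in edgeR (3 in DESeq2, those named next) and the median was 0.00. OAS3, which makes the activator of RNase L, stood at 346, 380 and 302 CPM in KD and at 250, 256 and 245 CPM in SCR (log2 fold change 0.45, adjusted p = 0.0802). IFIT2, an antiviral effector, stood at 129, 110 and 92.2 CPM in KD and at 75.4, 75.8 and 81.4 CPM in SCR (log2 fold change 0.51, adjusted p = 0.0962). USP18, which removes ISG15 and restrains interferon signalling, stood at 288, 243 and 259 CPM in KD and at 426, 296 and 326 CPM in SCR (log2 fold change −0.41, adjusted p = 0.105). KD and SCR libraries did not overlap for these 3 genes, and the WT values of OAS3 and USP18 were closer to SCR and to KD, respectively, at 247 to 263 CPM and 274 to 308 CPM.

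The study had tied 41 genes to TRAFD1 through genetic associations and expression levels in blood samples other than these. It also tested them, together with TRAFD1, as a set in these THP-1 libraries, by permutation and against the WT and SCR comparison. It reported more change than in that control comparison with LPS, and no such increase without LPS. Of the 35 of the 41 genes that passed the filter here, 0 passed the adjusted threshold in edgeR and GBP5 did in DESeq2, 1 was higher and 3 (8.57%) were lower at a nominal p under 0.05, and the median log2 fold change was 0.00. The shares over all genes were 5.74% and 6.90%. CXCL10, an interferon-induced chemokine, stood at 5.98, 4.88 and 3.97 CPM in KD and at 7.73, 10.8 and 8.93 CPM in SCR (−0.86 ± 0.27 on the log2 scale, SE; adjusted p = 0.172, edgeR), with WT at 0.545 to 3.73 CPM. GBP5, a guanylate-binding protein, stood at 13.2, 7.93 and 6.84 CPM in KD and at 4.53, 5.39 and 7.01 CPM in SCR (log2 fold change 0.75, adjusted p = 0.151), with an overlap of KD replicate 3. PSTPIP2 and APOL6 were the other members with a nominal p under 0.05, with log2 fold changes of −0.30 and −0.21.

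Among genes of MHC class I presentation, 3 of 20 (15%) were lower and 0 higher at a nominal p under 0.05. TAP2, a subunit of the peptide transporter, stood at 184, 183 and 189 CPM in KD and at 242, 263 and 229 CPM in SCR (−0.40 ± 0.10 on the log2 scale, SE; adjusted p = 0.0802, edgeR). NLRC5, the transactivator of these genes, stood at 44.3, 48.5 and 41.1 CPM in KD and at 69.3, 65.4 and 58.6 CPM in SCR (log2 fold change −0.53, adjusted p = 0.0949). Neither gene overlapped between the groups, and the WT libraries of both, at 254 to 295 CPM and 67.1 to 77.2 CPM, were above KD. The median of the list was 0.01. For MHC class II, 2 of 10 genes (20%) were higher and 1 (10%) lower at a nominal p under 0.05, with a median of −0.01. HLA-DPA1, the alpha chain of HLA-DP, had the smallest p at a low level, with 1.48, 3.06 and 1.94 CPM in KD and 0.80, 0.639 and 0.616 CPM in SCR (log2 fold change 1.62, adjusted p = 0.173, edgeR). HLA-DRA, the alpha chain of HLA-DR, was at 5.10, 3.31 and 2.80 CPM in KD and at 6.36, 4.57 and 6.24 CPM in SCR (log2 fold change −0.61, adjusted p = 0.297). CD74, the invariant chain, was at 103, 115 and 131 CPM in KD and at 98.3, 92.4 and 95.3 CPM in SCR (log2 fold change 0.29, adjusted p = 0.255).

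Besides ITGB2, 3 of 17 adhesion genes were higher at a nominal p under 0.05 (17.6%) and ITGB2 was the only one lower. ITGA5, a fibronectin receptor subunit, had a log2 fold change of 0.30 (adjusted p = 0.328, edgeR) and TLN1, which links integrins to actin, of 0.34 (adjusted p = 0.292). In the cytoskeleton list, ACTB stood at 3268, 3681 and 4074 CPM in KD and at 2561, 3013 and 3000 CPM in SCR (log2 fold change 0.36, adjusted p = 0.0826). VASP, which promotes actin filament growth, stood at 207, 200 and 204 CPM in KD and at 279, 256 and 263 CPM in SCR (log2 fold change −0.39, adjusted p = 0.0802). Each was without overlap, in opposite directions, and 4 of the 25 genes (16%) were higher and 2 (8%) lower.

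Of 16 tested genes of the phagocyte oxidase and granules, 4 (25%) were higher and 2 (12.5%) lower at a nominal p under 0.05, 0 passed the adjusted threshold in edgeR (PRTN3 did in DESeq2) and the median was 0.07. PRTN3, AZU1 and ELANE, of the serine protease family of azurophil granules, were higher in every KD than in every SCR library, whereas CTSG of the same family had a log2 fold change of −0.01 (adjusted p = 0.968, edgeR). PRTN3 stood at 184, 227 and 236 CPM in KD and at 130, 107 and 107 CPM in SCR (0.91 ± 0.21 on the log2 scale, SE; adjusted p = 0.0802, edgeR). AZU1, a protease homologue without activity, stood at 161, 163 and 226 CPM in KD and at 89.4, 108 and 99.1 CPM in SCR (log2 fold change 0.89, adjusted p = 0.179), and ELANE, neutrophil elastase, at 273, 331 and 354 CPM in KD and at 255, 231 and 263 CPM in SCR (log2 fold change 0.36, adjusted p = 0.191). The WT level was uneven, since WT replicate 2 of PRTN3, at 161 CPM, and of AZU1, at 151 CPM, was well above the other WT libraries at 67.9 and 82.7 CPM and at 44.2 and 59.8 CPM. In the same list, NCF1 of the phagocyte oxidase had a lower mean, at 17.2 CPM in KD against 25.9 CPM in SCR (log2 fold change −0.59, adjusted p = 0.211), and it has near-identical copies among which reads can be split.

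In cholesterol synthesis 1 of 22 genes was higher and 2 were lower at a nominal p under 0.05. In glycolysis 4 of 22 (18.2%) were higher and 2 (9.09%) lower, against 5.74% and 6.90% over all genes, with log2 fold changes of 0.36 for PKM (adjusted p = 0.177, edgeR) and 0.38 for ALDOA (adjusted p = 0.179). Of 30 mitosis genes 1 was higher and 0 lower, of 29 DNA replication genes 1 and 2, of 20 targets of p53 0 and 1, of 20 chaperones of the endoplasmic reticulum 1 and 0, and of 25 genes of the amino acid stress response 1 and 2. The lysosome list had 2 higher and 2 lower of 26, the RNA interference machinery 0 and 2 of 14, nucleic acid sensors 3 and 1 of 16, snoRNA host genes 1 and 0 of 16, and myeloid transcription factors 1 and 2 of 24, POU2F2 among the latter.

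The genes with the largest fold changes short of the adjusted threshold in edgeR were expressed at low levels. SPAG16, a sperm flagellum protein gene, stood at 7.52, 4.63 and 9.10 CPM in KD and at 23.3, 28.3 and 20.1 CPM in SCR (log2 fold change −1.75, adjusted p = 0.0655, edgeR), with WT between them at 10.1, 15.4 and 17.7 CPM. CCNB3, a cyclin of meiosis, stood at 4.10, 7.44 and 8.09 CPM in KD and at 18.7, 20.4 and 19.3 CPM in SCR (log2 fold change −1.58, adjusted p = 0.113), and its WT libraries, at 14.9, 17 and 23.2 CPM, lay around SCR. Every KD library of both genes was below every SCR library. PTCHD1 and CDC20B had log2 fold changes of −1.60 and −1.63 (adjusted p = 0.173 and 0.217), but their WT means were closer to KD than to SCR, with WT libraries at 1.75 to 7.74 CPM and 3.45 to 4.41 CPM. The lncRNA gene ENSG00000257894 had a log2 fold change of −2.02 (adjusted p = 0.0962). In DESeq2 on the libraries of the pair, the adjusted p was 8.12e-07 for SPAG16, 2.9e-05 for CCNB3 and 0.00304 for ENSG00000257894. With LPS, in other libraries, these genes had log2 fold changes of 0.42, 0.39 and 0.49, and PTCHD1 and CDC20B of 1.30 and 0.34. All of these were opposite in sign to the values without LPS and short of the adjusted threshold in edgeR. The lncRNA gene ENSG00000234418, named by the same rule, kept its sign, at −1.53 without LPS and −0.20 with LPS. In the other direction, the processed pseudogene ENSG00000224722 had a log2 fold change of 1.22 (adjusted p = 0.0655, edgeR) and NDUFA7, a complex I subunit gene, of 1.10 (adjusted p = 0.0898). ZNF90, a zinc finger gene, stood at 12.8, 12.2 and 13.4 CPM in KD and at 4.93, 6.94 and 6.85 CPM in SCR (log2 fold change 1.05, adjusted p = 0.0858), METRN at 7.86, 12.6 and 18 CPM in KD and at 6.04, 7.31 and 4.93 CPM in SCR (log2 fold change 1.07, adjusted p = 0.119), and AKTIP at 6.45, 7.27 and 6.61 CPM in KD and at 3.87, 3.75 and 2.62 CPM in SCR (log2 fold change 0.98, adjusted p = 0.0802). With LPS these higher genes kept their sign, short of the adjusted threshold in edgeR. The log2 fold changes were 0.10 for ENSG00000224722, 0.34 for NDUFA7, 0.95 for ZNF90, 0.30 for METRN and 0.10 for AKTIP. LENG1, named by the same rule, went from 0.96 without LPS to −0.06 with LPS. By class of gene, the median log2 fold change without LPS was 0.09 for 1418 processed pseudogenes, −0.10 for 1469 lncRNA genes and −0.01 for 12490 protein-coding genes.

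A site for the siRNA seed, TTAACAA, was present in the 3′ UTR of 2136 of 12438 tested coding genes with an annotated 3′ UTR (17.2%), on the transcript strand and in the longest coding transcript. Of the genes with a site, 75 (3.51%) were higher and 161 (7.54%) lower at a nominal p under 0.05, against 5.29% and 7.13% of all 12438. The median log2 fold change was −0.02 with a site and 0.00 for the 10302 genes without, and −0.03 for the 485 genes with 2 or more sites. Genes with a site also had longer 3′ UTRs, with a median of 3304 bases against 1185. Of the 5 protein-coding genes past the threshold, POU2F2 and BHLHE22 held 1 site each and TRAFD1, ITGB2 and ZDHHC7 held none. The site of POU2F2 lay 3243 bases before the end of its 5147-base UTR and is shown with the seed match in capitals:
POU2F2 3′ UTR: gaaggaaaacTTAACAActtttgggtg

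The same pair of siRNAs was also compared under LPS, in libraries that the comparison above does not use. With LPS, 0 genes passed the adjusted threshold in edgeR (0%), 1963 had a nominal p under 0.05 (11.8%) and DESeq2 on the same genes called 142. Of the 11 genes, 10 had the same sign as without LPS (90.9%), against 57.2% of all genes tested and 84.2% of the 158 genes with a nominal p under 0.001 without LPS. For 7 of the 11 (63.6%) the LPS difference had the same sign and a nominal p under 0.05. That held for 8.3% of all genes tested and 34.8% of the 158. For TRAFD1 the log2 fold change with LPS was −0.65 ± 0.22 (SE; edgeR, unadjusted p = 0.00901, adjusted p = 0.262), and for POU2F2 −0.38 ± 0.10 (unadjusted p = 0.000624, adjusted p = 0.165). The 4 pseudogenes had log2 fold changes of 0.25 to 0.58 with LPS. ITGB2 at −0.13, BHLHE22 at −0.10 and ZDHHC7 at −0.04 were close to 0. RP11-196G18.23 was the gene of opposite sign, at 0.70.

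The difference between the KD effects with and without LPS was tested directly as an interaction. No gene passed the adjusted threshold in edgeR (0%), 1274 had a nominal p under 0.05 (7.64%), and DESeq2 on the 18 libraries called 3. Of the 11 genes, the 7 that were lower in KD had a nominal interaction p under 0.05 and the 4 pseudogenes did not. That p was 0.0209 for TRAFD1 (adjusted p = 0.612), 0.00429 for ITGB2 (adjusted p = 0.569) and 2.61e-05 for RP11-196G18.23 (adjusted p = 0.274, edgeR). The 11 genes were chosen on the difference without LPS, which enters the interaction, so the choice itself favours small p-values. Across genes, which are not independent replicates, the log2 fold changes without and with LPS had a Spearman correlation of 0.13 and a Pearson correlation of 0.04 over 16678 genes that share library type and depth range. Of the lists, the medians with LPS were 0.09 for ribosomal protein genes, 0.18 for mitochondrial-encoded genes and −0.19 for NF-kB targets, against 0.02 over all genes tested. They were −0.13 for subunits and inhibitors of NF-kB and −0.05 for TRAF adaptors. The LPS receptor pathway, at 0.04, and regulators of apoptosis, at 0.09, changed sign from medians of −0.17 and −0.06 without LPS.

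**Figure D5:**
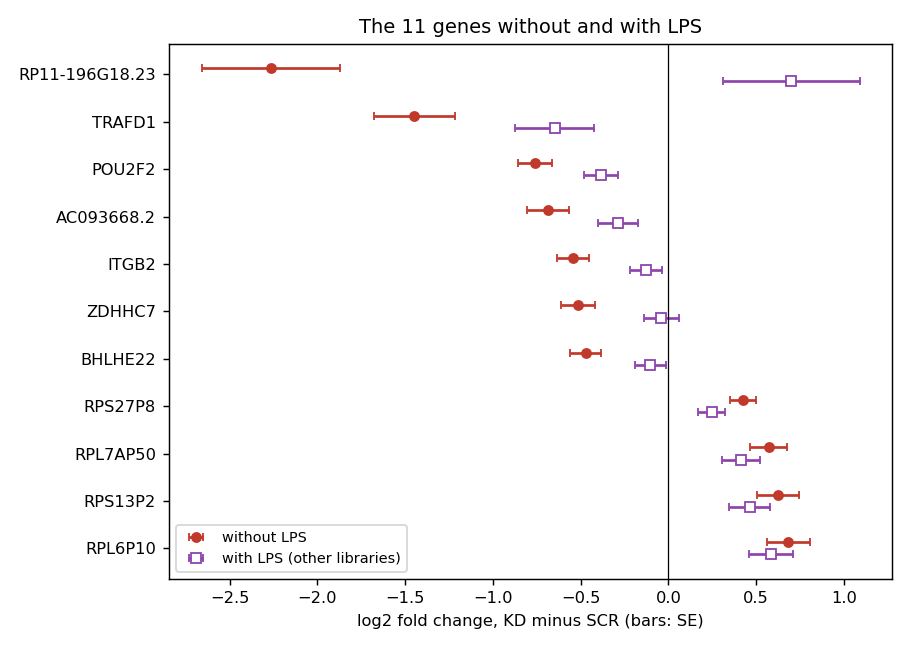
Log2 fold change of KD minus SCR for the 11 genes past an adjusted p of 0.05 without LPS (filled circles) and for the same genes with LPS in other libraries (open squares), with bars of 1 SE. The open squares lie closer to 0 than the filled circles for all 11 genes, which were chosen on the filled circles, and lie on the other side of 0 for RP11-196G18.23.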

How the data were processed

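Gene-level counts of 18 libraries were used. The authors prepared QuantSeq 3′ libraries, removed low-quality, adapter and poly-A sequence, aligned reads with HISAT to GRCh37 and counted them with featureCounts over Ensembl genes reduced to 500 bases each. The deposited values are raw read counts. Gene names came from GENCODE v44lift37 for 55665 of 63677 identifiers.

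Genes were filtered with filterByExpr by group. A mean for each of the 6 groups was estimated in edgeR (version 4.0.16, R 4.3.3) with TMM scaling and the quasi-likelihood F test, on all libraries at once, because 3 per group give little information on the spread. P-values were adjusted by Benjamini-Hochberg over the 16678 genes, with a threshold of 0.05, and SE was derived from the fold change and F. An exact permutation test of 3 against 3 cannot go below 0.1. Counts of this comparison were simulated for 16316 genes. On the log2 scale, 91 of 100 genes changed by 1 and 100 of 100 changed by 2 were recovered, and 16 of 207 calls (7.73%) were false. The changed genes were drawn only from genes above a cut-off on the mean level, and otherwise every group had the same mean. Smaller changes and changes in genes of low level were not simulated, so these shares do not cover them. Floors cover counting error only. Pseudogenes were aligned locally to their parent transcripts, and seed sites were searched as exact matches.

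The comparison, its genes, the 30 lists and the tests were chosen with earlier results of these data known. Named were TRAFD1, the genes past the threshold, the 8 per direction with the largest fold change among those with an unadjusted p under 0.01, at least 5 CPM and no overlap, the 3 members of each list with the smallest p, and parents of pseudogenes. Further list members were named after their values were seen, and some that the rule names are not reported here. Alternatives were DESeq2 1.42.0, the pair alone, other size factors and filters, a replicate block, a GC correction, list members above the floor, the study's call rule and leaving out each library. CCL3, CCL4 and SOD2 of the NF-kB list matched no identifier and were not analysed here.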

Additional observations from a re-analysis of the deposited data

How the results depend on the processing

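Without LPS, all 11 genes kept their direction in every alternative in which they were fitted, and the number that passed an adjusted p of 0.05 ranged widely. It was 242 with DESeq2 on the 18 libraries, 86 with DESeq2 on the pair, 320 without a filter, 66 with 5 CPM in 3 libraries, 45 with the GC correction (chosen after seeing the data) and 0 with edgeR on the pair alone (1305 at a nominal p under 0.05). Leaving out a library gave between 1 and 52 genes. Under the study's rule (adjusted p at most 0.01 and an absolute log2 fold change over 1) edgeR called 0, while DESeq2 on the pair (chosen after seeing the data) called 11, all lower, SPAG16, CCNB3 and ENSG00000257894 among them, of which 1, TRAFD1, is among the 11 above. The share of higher genes was 4 of 11 in the fit reported, 7 of 14 with other size factors and 55 of 86 with DESeq2 on the pair. The cause of these differences was not tested.

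The log2 fold change of TRAFD1 was −1.41 with edgeR on the pair alone, short of the threshold, and between −1.72 and −1.20 when a library was left out. With LPS the count was 142 with DESeq2, 619 with DESeq2 on the pair, 161 with edgeR on the pair, 425 without a filter and 12 with the GC correction. The interaction gave 3 with DESeq2 and 132 without a filter. RPS27A, the parent of a named pseudogene, and TAF1D changed sign, both short of the threshold. RPS27A was at −0.02 as reported, 0.0067 with the GC correction, 0.025 on the pair and −0.13 to 0.043 when a library was left out, and TAF1D was at −0.042 to 0.31 when a library was left out, below 0 without KD replicate 1. All other named genes kept their direction. Over the alternatives, 41 list medians in 20 lists moved by more than the spread between replicates and 427 did not. The medians stayed between −0.30 and −0.15 for NF-kB targets, −0.27 and −0.14 for TRAF adaptors, 0.10 and 0.16 for ribosomal proteins and 0.22 and 0.39 for mitochondrial-encoded genes, and ran from −0.05 (without KD replicate 1) to 0.14 for ribosomal protein pseudogenes.

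The replicate numbers gave no clear pairing of the libraries. Without LPS, the correlations of deviations between KD and SCR libraries of the same number were 0.02, 0.09 and −0.04, and KD replicates 1 and 3 correlated better with another number. With LPS, those of replicates 4, 5 and 6 were −0.09, 0.09 and 0.07. Correlations from groups of 3 cannot show that the libraries were not paired. With the replicate number as a block, 183 genes passed without LPS and 85 with LPS, and the 11 genes were among the 183.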
